A study of Capra hircus with 2 samples.

Results

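Elastic fibre and matricellular genes were followed in goat longissimus thoracis, a long muscle of the back, at 6 months of age and in the fetus. The group holds 9 genes, taken as a fixed list of accessions: ELN, FBN1, LOX, VCAN, FN1, SPARC, POSTN, TNC and THBS2. All 9 had reads in both libraries, out of 11663 transcript accessions with reads in either. The accessions are those of cattle RefSeq transcripts and carry the symbols of the list, since neither the deposited files nor a table of goat genes from RefSeq (assembly ARS1.2) pairs them with names. That table holds all 9 symbols, but 0 of the 11663 accessions.

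Both libraries came from Chinese Xuhuai goats, with no treatment or genetic change named. The first was made from muscle at 6 months of age and the second from muscle of fetuses at day 90 of a 150-day gestation. They held 9144138 unique reads over 10850 accessions at 6 months and 12811117 unique reads over 11393 accessions in the fetus. The labels do not state how many animals stand behind a library, and the sampling text for the older goats repeats the one for fetuses. With 1 library a stage there was no replicate check and no test across animals. Intervals given below are 95% intervals for counting error alone. They take each read as a separate molecule, so reads multiplied by PCR would make them too narrow. The muscle label was not checked against marker genes, because other accessions have no names here.

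Elastic fibres let a tissue stretch and recoil. They consist of a core of elastin laid down on a scaffold of fibrillin microfibrils, and lysyl oxidase joins the elastin molecules through their lysines. Matricellular proteins are secreted into the matrix without forming its main fibres; they bind matrix, growth factors and cell surface receptors, and many are known to be made in development and wound repair. In muscle, such proteins lie largely in the connective tissue sheaths, made mostly by fibroblasts and by cells of vessel walls and tendon.

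Of the 9 genes, 8 were lower at 6 months than in the fetus, and ELN was not. Of all accessions compared, 71.2% had a lower RPKM at 6 months. POSTN had the widest gap, 492-fold by read share, and the other 7 lay between 4.20-fold and 36.4-fold. A gene was called when log2(RPKM + 1) differed by at least 1 between the libraries, about 2-fold, where RPKM is the read count scaled to transcript length and to the library's total. By that rule 8 of 9 genes were higher in the fetal library, beside 35.1% of all 9705 accessions compared (those whose RPKM reached 1 in one library or both). None of the 9 was higher at 6 months, beside 9.46% of accessions, and with no replicates neither count is a test. The genes were also chosen with earlier results of these data known, so counts set beside these shares are description only. The median difference, 6-month minus fetal, was -3.04 over the 9 genes and -0.61 over all accessions compared. A difference of at least 2 in favour of the fetus was found for 7 of the 9 genes, beside 10.8% of accessions. One of at least 3 was found for 5 genes, beside 3.14%, and one of at least 4 for 2 genes, beside 0.855%.

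RPKM is relative to each library's total, and most accessions lay lower at 6 months on this scale. Over the 8201 accessions whose RPKM reached 1 in each library, the median log2 ratio of 6-month to fetal RPKM was -0.58. After centring on that median, the same count of 8 genes was higher in the fetal library, beside 22.3% of accessions, and ELN became the 1 gene higher at 6 months, beside 17.2%. The background differed with abundance. At a mean RPKM of 10 to 100, 5 of 6 genes of the group were higher in the fetal library, beside 32.4% of accessions in that range. At 100 to 1000, both genes (FN1 and POSTN) were, beside 28.7%. At 1000 or more the share was 59.4%, so the call of SPARC, the 1 gene of the group in that range, was shared by most accessions there. The genes are also long, with a median transcript length of 4660 bases against 2074 bases for all accessions compared. Among the 5019 accessions at least as long as the shortest gene of the group (2030 bases), 36.3% were higher in the fetal library. In whole tissue, fewer cells of a type and less RNA per cell cannot be told apart.

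**Figure D1:**
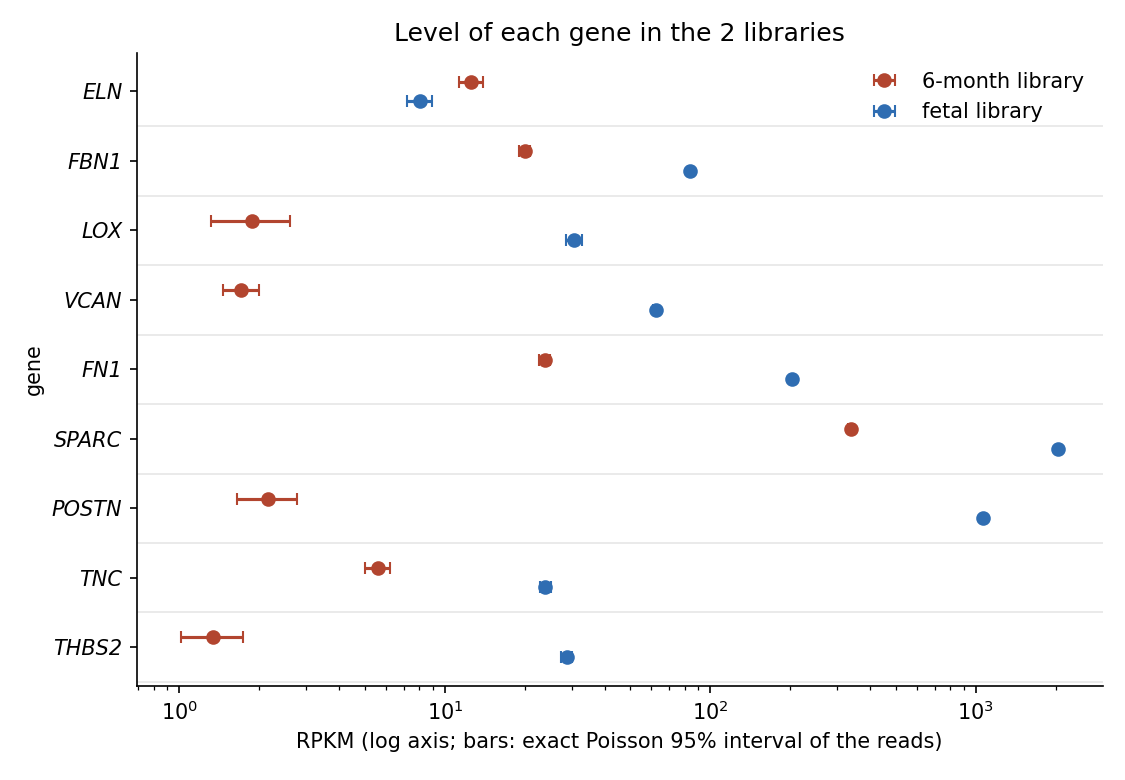
Level of each gene as RPKM on a log axis in the 6-month library and in the fetal library; bars are exact Poisson 95% intervals of the reads. ELN is the gene whose 6-month point (12.6) lies to the right of its fetal point (8.07), and POSTN has the widest gap, with 2.16 at 6 months and 1062 in the fetus.

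The elastic fibre genes did not move as 1 block. FBN1 (NM_174053) encodes fibrillin-1, the main protein of microfibrils, and had 1633 reads (RPKM 19.96) at 6 months and 9616 reads (RPKM 83.9) in the fetus. Its read share was 4.20-fold lower at 6 months (interval 3.99 to 4.43), a difference of -2.02. LOX (NM_173932), lysyl oxidase, had 35 reads (RPKM 1.89) at 6 months and 798 reads (RPKM 30.7) in the fetus. The LOX share was 16.3-fold lower at 6 months (11.6 to 23.5), a wide interval because it rests on 35 reads. ELN (NM_175772), which encodes the elastin precursor, had 373 reads (RPKM 12.6) at 6 months and 335 reads (RPKM 8.07) in the fetus. ELN thus had the higher share at 6 months, 1.56 times the fetal share (1.34 to 1.81), an amount that stays under the threshold with a difference of 0.58. Centring on the median ratio brings it to 1.13, so whether ELN counts as higher at 6 months depends on how the libraries are scaled.

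Ratios between genes of the same library do not depend on that scaling. For each unit of FBN1 RPKM there was 0.63 of ELN at 6 months (0.56 to 0.71) and 0.096 in the fetus (0.086 to 0.11). The ELN to FBN1 ratio was 6.56 times as high at 6 months as in the fetus (5.61 to 7.67). ELN also overtook LOX: the ELN to LOX ratio was 6.67 at 6 months (4.71 to 9.73) and 0.26 in the fetus (0.23 to 0.30). In the fetus ELN was the lowest of the 9 genes by RPKM, and LOX stood above it. At 6 months ELN was the fourth highest, and LOX was among the 4 lowest. ELN levels depend on the length used, since about 50.1% of its transcript was covered at 6 months and 50.9% in the fetus. Per covered kilobase, a measure chosen after the data were seen, the ELN to FBN1 ratio was 1.15 at 6 months and 0.19 in the fetus. ELN then stood above FBN1 at 6 months, and the ratio was 6.10 times as high at 6 months as in the fetus. This measure raises ELN more than FBN1 by construction, since less of ELN was covered. It treats uncovered bases as absent from the transcript, and no interval was computed for it.

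VCAN (NM_181035) encodes versican, a large proteoglycan that binds hyaluronan and fills the loose matrix of developing tissue. It had 161 reads (RPKM 1.71) at 6 months and 8213 reads (RPKM 62.3) in the fetus, the second largest gap of the group. The share was 36.4-fold lower at 6 months (31.2 to 42.8) and the difference -4.55, rank 42 of 9705 accessions counted from the fetal end. FN1 (NM_001163778) encodes fibronectin, the adhesive glycoprotein to which cells bind through integrins and on which other matrix proteins assemble. FN1 had 1752 reads (RPKM 23.8) at 6 months and 20871 reads (RPKM 202) in the fetus. Its share was 8.50-fold lower at 6 months (8.10 to 8.93), and its difference of -3.04 is the median of the group. The VCAN gap was the wider of the 2: the FN1 to VCAN ratio was 13.9 at 6 months (11.8 to 16.4) and 3.25 in the fetus (3.16 to 3.33).

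Among the matricellular genes, POSTN stood farthest apart. POSTN (NM_001040479) encodes periostin, a collagen-binding protein of tendon, periosteum and other load-bearing connective tissue. It had 59 reads (RPKM 2.16) at 6 months and 40656 reads (RPKM 1062) in the fetus. That is a share 492-fold lower at 6 months (381 to 646) and a difference of -8.39, rank 3 of all 9705 accessions from the fetal end. By RPKM, POSTN ranked 7262 at 6 months and 115 in the fetus among the accessions compared. Of the 116 accessions with a fetal RPKM of at least 1000, 3 were under an RPKM of 10 at 6 months, and POSTN is 1 of them. The median ratio of 6-month to fetal RPKM over these 116 was 0.28, against 0.0020 for POSTN. That set was chosen by its fetal level, which in itself favours low ratios.

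SPARC (NM_174464), also called osteonectin, binds collagen and calcium and is made by many cells that lay down matrix. It was the most abundant gene of the group in both libraries, with 6620 reads (RPKM 338) at 6 months and 55737 reads (RPKM 2032) in the fetus. The SPARC share was 6.01-fold lower at 6 months (5.86 to 6.17), a difference of -2.58, yet at 6 months it still ranked 247 among the 9705 accessions, against 84 in the fetus. SPARC and POSTN were close in the fetus, where the ratio of SPARC to POSTN RPKM was 1.91 (1.89 to 1.94). At 6 months that ratio was 157 (121 to 206).

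TNC (NM_001078026) encodes tenascin-C, a large glycoprotein known from developing tendon and from muscle after loading or injury. It had 319 reads (RPKM 5.59) at 6 months and 1911 reads (RPKM 23.9) in the fetus, a share 4.28-fold lower at 6 months (3.80 to 4.83). Its difference of -1.92 was the smallest among the 8 called genes on the log2(RPKM + 1) scale. THBS2 (NM_176872) encodes thrombospondin-2, which inhibits vessel growth and is known from mouse knockouts for a part in collagen fibril assembly. THBS2 had 57 reads (RPKM 1.34) at 6 months and 1716 reads (RPKM 28.7) in the fetus. Its share was 21.5-fold lower at 6 months (16.5 to 28.5), with a difference of -3.67; without the pseudocount of 1, which shortens the gap of such low genes, the log2 ratio was -4.43. The TNC to THBS2 ratio was 4.18 at 6 months (3.14 to 5.64) and 0.83 in the fetus (0.78 to 0.89), and the order of both genes was thus turned round.

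**Figure D2:**
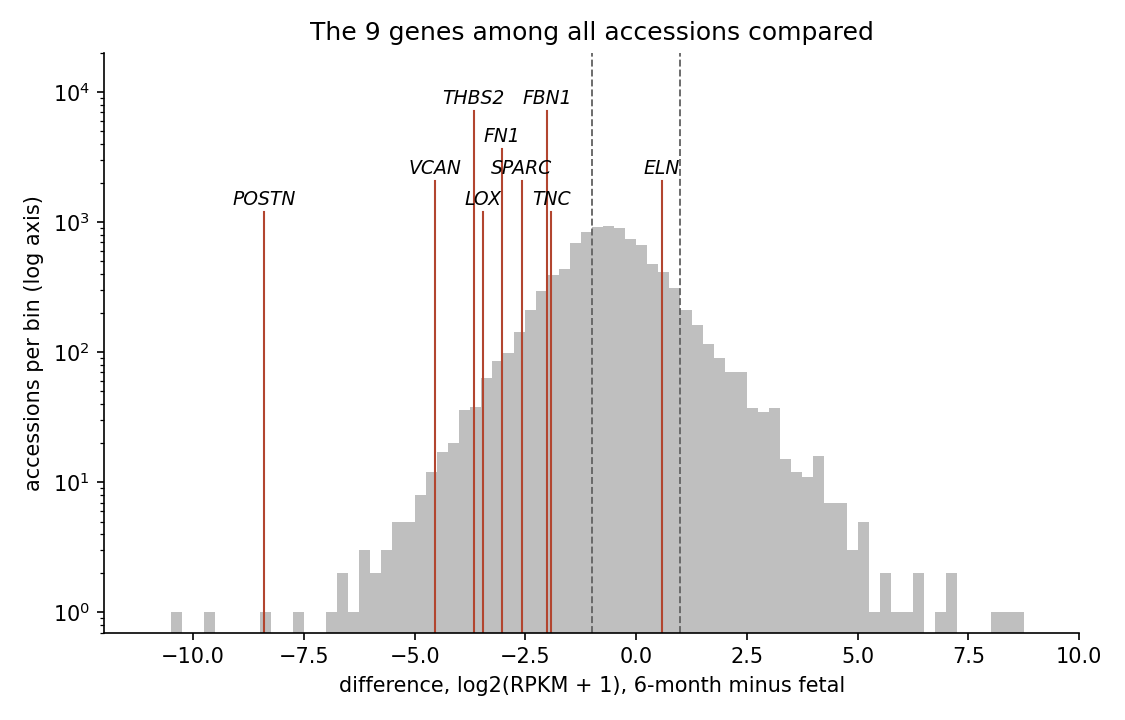
Histogram of the difference in log2(RPKM + 1), 6-month minus fetal, for the 9705 accessions compared, with a log count axis; red lines mark the 9 genes and dashed lines the threshold of 1 in either direction. Of the 9 lines, 8 lie left of the lower threshold, POSTN at -8.39 near the end of the distribution, and ELN lies at 0.58 between the thresholds.

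All 36 pairs of genes were compared by how far their ratio differed between the libraries (Wald interval on the log of the ratio of ratios), and for 34 pairs the interval left out 1. The intervals that held 1 were those of FBN1 with TNC and of LOX with THBS2. FBN1 and TNC kept nearly the same ratio, 3.57 at 6 months and 3.51 in the fetus, so the ratio of ratios was 1.02 (0.89 to 1.16). For LOX and THBS2 it was 1.32 (0.86 to 2.03), a wide interval that comes from 35 and 57 reads at 6 months. In order of the read share, the gap grew from FBN1 and TNC through SPARC, FN1, LOX, THBS2 and VCAN to POSTN. These intervals compare 2 libraries and say nothing of the spread between goats.

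By level, the order at 6 months was SPARC, FN1, FBN1, ELN, TNC, POSTN, LOX, VCAN and THBS2. The last 4 lay between an RPKM of 1.34 and 2.16, and each neighbour among them had a ratio whose interval held 1, for example 1.15 for POSTN over LOX (0.74 to 1.79). The first and last of these 4 did differ beyond counting error, with a ratio of POSTN to THBS2 of 1.61 (1.10 to 2.37). In the fetus the order was SPARC, POSTN, FN1, FBN1, VCAN, LOX, THBS2, TNC and ELN. There, the neighbours LOX and THBS2 had a ratio of 1.07 (0.98 to 1.16), and all other neighbours differed beyond counting error. How well goat reads match each cattle transcript was not tested, and the intervals do not cover it. The whole group spanned a 253-fold range of RPKM at 6 months and 252-fold in the fetus, with ELN as the lowest fetal gene. With SPARC and ELN taken per covered kilobase, the fetal ratio between them was 137. The 6-month range, set by SPARC and THBS2, was not computed per covered kilobase, so 137 is not to be set against the 253-fold range. The group had a median gene RPKM of 5.59 at 6 months and 62.3 in the fetus.

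Summed over the 9 genes, the group took 11009 reads, 0.120% of the library, at 6 months (exact binomial interval 0.118% to 0.123%). In the fetus it took 139853 reads, 1.09% (1.086% to 1.097%). The summed share was 9.07-fold lower at 6 months (8.89 to 9.25). Leaving SPARC out made this 13.7-fold, leaving POSTN out 6.47-fold, and leaving both out 7.16-fold. The size of the gap thus depended on which of SPARC and POSTN was counted, and leaving out either moved it in opposite directions. The group was lower at 6 months in all 4 sums.

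The make-up of the group shifted with it. SPARC made up 83.0% of the summed RPKM at 6 months and 57.5% in the fetus, while POSTN made up 0.53% at 6 months and 30.1% in the fetus. ELN had 3.09% at 6 months and 0.23% in the fetus, and FBN1 had 4.90% at 6 months and 2.37% in the fetus. FN1 kept about the same part, 5.84% at 6 months and 5.72% in the fetus. VCAN had 0.42% at 6 months and 1.76% in the fetus.

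**Figure D3:**
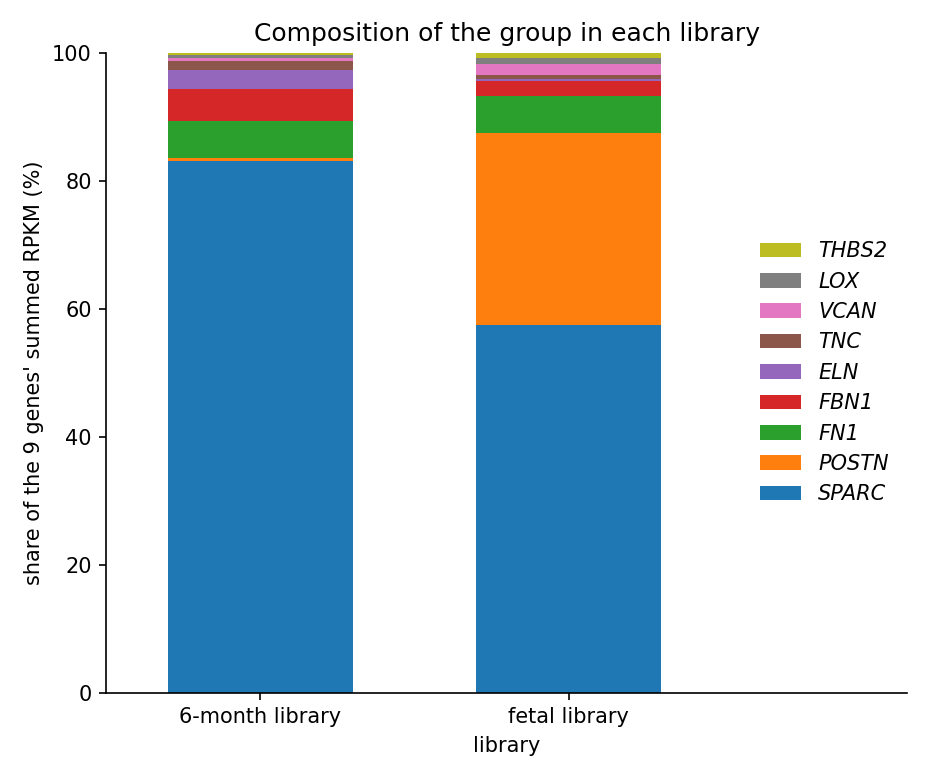
Share of each gene in the summed RPKM of the 9 genes, in percent, for the 6-month library and the fetal library (1 library each, no error bars). The POSTN band is 30.1% in the fetus and 0.53% at 6 months, and the SPARC band is 83.0% at 6 months and 57.5% in the fetus.

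How much of each transcript the reads reached bears on these levels, and the authors deposited that share as coverage. For ELN, 50.1% of the 3242 bases were covered at 6 months and 50.9% in the fetus, which leaves 1619 bases without a read at 6 months and 1593 in the fetus. Other accessions within 20% of the same depth had a median coverage of 81.0% at 6 months (848 accessions) and 80.5% in the fetus (1154 accessions), and 2.36% of them at 6 months and 3.47% in the fetus lay below ELN. Depth here is read-bases per base of transcript, with a read taken as 90 bases, and was 10.4 for ELN at 6 months and 9.30 in the fetus. ELN levels set against other genes therefore rest on part of the transcript in both libraries, while the covered percent was alike between libraries. Which bases were covered is not given, so whether they were the same in both libraries is not known.

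Most of the other genes were covered well in the fetus, where depth was high. FBN1 reads covered 99.5% of 8947 bases there, above 98.2% of accessions of like depth, and 91.1% at 6 months. SPARC coverage was 93.3% at 6 months and 93.4% in the fetus, at depths of 278 at 6 months and 2343 in the fetus. POSTN was covered to 62.6% at 6 months by its 59 reads, near the median of 57.4% for accessions of like depth, and to 96.4% in the fetus.

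VCAN, THBS2 and TNC were covered less at 6 months than most accessions of like depth. VCAN coverage was 38.2% at 6 months, against a median of 52.4% at like depth, and 96.2% in the fetus, against 89.5%. THBS2 coverage was 35.5% at 6 months, against a median of 47.7% at like depth, and 79.4% in the fetus, against 87.7%. THBS2 was thus low for its depth in both libraries. TNC coverage was 61.7% at 6 months, against a median of 73.5% at like depth, and 86.4% in the fetus, against 86.8%. LOX was covered to 57.4% at 6 months, against a median of 54.6% at like depth, and 83.8% in the fetus, against 87.7%. Fibronectin, versican, tenascin-C and elastin transcripts are known to be spliced in several forms, and each gene is represented by 1 accession here, so forms were not told apart.

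**Figure D4:**
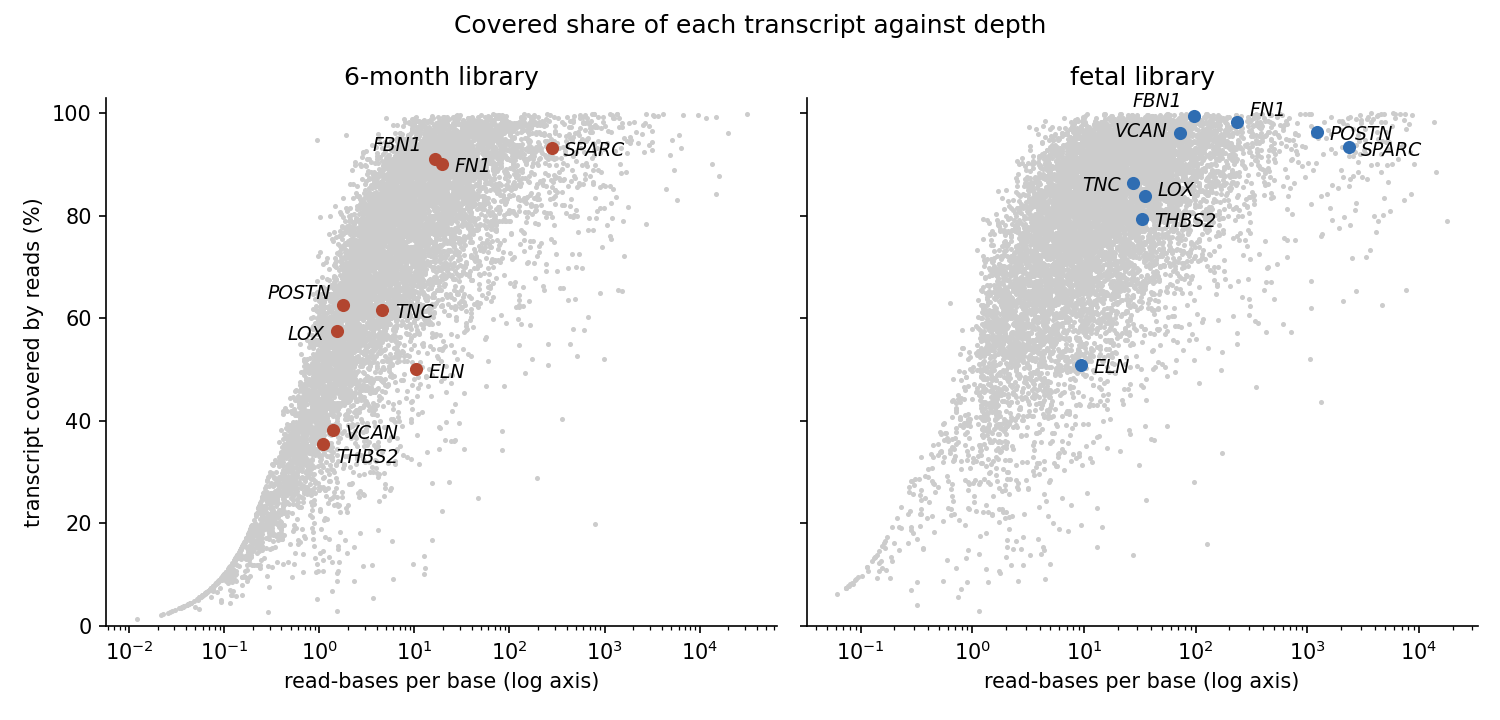
Percent of each transcript covered by reads against depth in read-bases per base (log axis), for the 6-month library (left) and the fetal library (right); grey points are all accessions compared that had reads, coloured points the 9 genes. ELN lies low for its depth in both panels, at 50.1% at 6 months and 50.9% in the fetus, whereas FBN1 reaches 91.1% at 6 months and 99.5% in the fetus.

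The direction of all 9 genes was the same under each of the 4 other scalings between libraries. These were transcripts-per-total scaling, library totals without the 50 most abundant accessions, and centring on the median or the trimmed mean of the ratios. Each applies the same factor to all accessions of a library, and the shifts were small beside the gaps of the 8 genes. All 4 raised ELN. The directions could therefore hardly change, and their agreement is no separate evidence. POSTN ranged from -8.46 to -7.98 over the 5 scalings and TNC, the gene nearest the threshold among the 8, from -1.92 to -1.41. In each case 8 of 9 genes were higher in the fetal library. The share of accessions was 34.4% with transcripts-per-total scaling, 30.8% with totals without the top 50 and 22.3% with each centring. With transcripts-per-total scaling 0 of 9 were higher at 6 months, beside 11.1% of accessions. Without the top 50 it was again 0 of 9, beside 12.5%. ELN ranged from 0.58 to 1.13 and passed the threshold under both centrings, beside 17.2% of accessions under each.

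With other pseudocounts and minimum values, 8 of 9 genes were again higher in the fetal library and 0 of 9 at 6 months. The share of accessions higher in the fetal library was 41.5% with a pseudocount of 0.1, 18.7% with a pseudocount of 5, 29.2% with no minimum RPKM and 36.7% with a minimum of 5. The share higher at 6 months was 11.1% with a pseudocount of 0.1, 6.75% with a pseudocount of 5, 7.87% with no minimum RPKM and 11.3% with a minimum of 5. At a difference of at least 2, 0 of 9 genes were higher at 6 months, beside 3.49% of accessions.

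**Figure D5:**
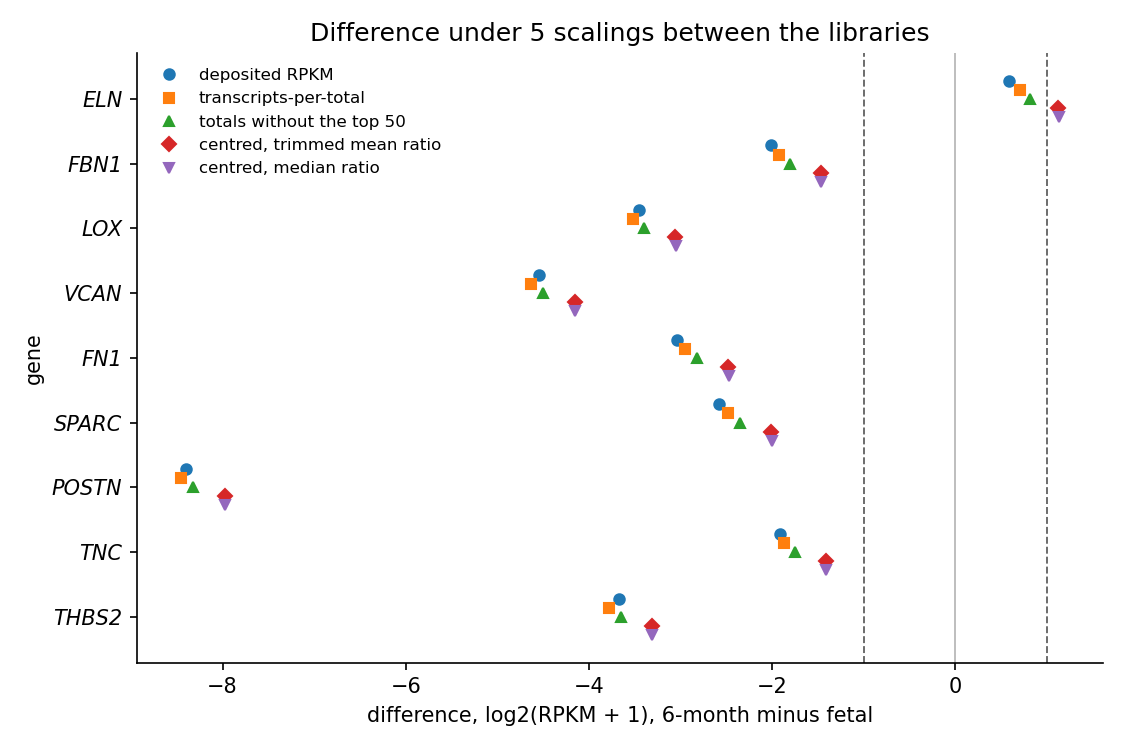
Difference in log2(RPKM + 1), 6-month minus fetal, of each gene under the deposited RPKM and 4 other scalings; dashed lines mark the threshold of 1 in either direction. The 8 genes other than ELN stay left of -1 under all 5, and ELN crosses 1 under both centrings (1.13 and 1.12).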

How the data were processed

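RNA sequencing of total RNA was done on 2 libraries, 1 of muscle at 6 months and 1 of fetal muscle. Tissue was frozen, RNA extracted with Trizol and libraries made by standard Illumina protocols, per the labels' protocols. For each transcript accession the authors deposited, per the file headers, the count of unique reads, the length in bases, the coverage in percent and the RPKM. The sources used here give no aligner, counting rule, use of strand or build. Counts summed to the total in the header, and an accession absent from a list was taken as 0 reads. For all accessions with 1 read (326 at 6 months, 235 in the fetus) the covered stretch was 90 bases, the span used for depth.

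From the deposited RPKM, log2(RPKM + 1) was compared as 6-month minus fetal, over accessions whose RPKM reached 1 in one library or both. The threshold was 1. Intervals of read ratios are exact conditional binomial (Clopper-Pearson) 95% intervals. A count of 0 would allow a share of up to 3.28e-05% of the 6-month and 2.34e-05% of the fetal reads (3 counts of the total). The calling rule was tested on simulated data with counting error alone and no spread between animals. The changes put in were larger than the threshold, so that test says little of changes near it. It also cannot show how the rule behaves across goats. The trimmed mean left out 10% at each end. All 9 genes of the group are named and no other. Lists of partner genes and of cell type markers had also been drawn up, but no accession could be matched to their symbols, so none was used. The genes and lists were chosen with earlier results of these data known. Statistics were computed with SciPy 1.17.1 and NumPy 2.4.6 in Python 3.11.15, tables were read with pandas 2.3.3, and plots were drawn with matplotlib 3.10.9.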

Additional observations from a re-analysis of the deposited data

How the results depend on the processing

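No paired analysis was possible because each stage has 1 library, and for the same reason no replicate could be left out. Under all 9 alternatives the count of genes higher in the fetal library was 8, except 7 at a threshold of 2 log2 units, where TNC (-1.92) was no longer called. The share of all accessions higher in the fetal library was 35.1% on the deposited RPKM, 10.8% at that threshold, and 18.7% (pseudocount of 5) to 41.5% (pseudocount of 0.1) over the other alternatives. The count higher at 6 months was 0, except 1 (ELN) with centring on the median ratio and 1 with centring on the trimmed mean. The share of all accessions higher at 6 months was 17.2% with each centring and 3.49% at the threshold of 2. It was 6.75% to 12.5% over the other alternatives. The median difference of -3.04 became -2.41 with a pseudocount of 5, -2.95 with transcripts-per-total scaling, -2.48 with each centring and -2.82 with totals without the 50 most abundant accessions, none of which is in the group. These settings moved the median of all accessions from -0.61 to -0.35, -0.56, -0.13 and -0.44 as well. The pseudocount set the size most for genes low at 6 months: THBS2 ranged from -4.33 to -2.41 and VCAN from -5.11 to -3.33. With totals without those 50, the summed share of the group was 0.182% at 6 months and 1.40% in the fetus. Depth limits LOX, THBS2 and POSTN most, with 35, 57 and 59 reads at 6 months.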

Other observations

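As an alternative chosen after seeing the data, RPKM was taken over the covered part of the transcript for the 4 genes with a depth of at least 9 in both libraries. ELN then had 25.1 at 6 months and 15.9 in the fetus, against 12.6 at 6 months and 8.07 in the fetus over the whole transcript. FBN1 had 21.9 at 6 months and 84.3 in the fetus, FN1 had 26.4 at 6 months and 205.8 in the fetus, and SPARC had 362.5 at 6 months and 2176 in the fetus. On this scale ELN stood above FBN1 at 6 months and below it in the fetus, whereas over the whole transcript FBN1 was the higher of both genes in each library. The scale raises ELN most by construction, since ELN was covered least of the 4 genes. The log2 ratio of 6-month to fetal ELN was 0.66 on this scale and 0.64 over the whole transcript.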
